A study of Mus musculus with 8 samples.

Results

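The calcium cycling genes of the heart muscle cell are described here as 10 genes, Ryr2, Casq2, Trdn, Jph2, Cacna1c, Slc8a1, Atp2a2, Pln, Sln and Strit1, out of 32285 genes in the deposited tables. They were taken by symbol for their known role, with earlier results of these data known. All 10 were found in the gene table, passed the filter on nuclei and passed the filter on low counts in cardiomyocytes. They were read in 27152 cardiomyocyte nuclei, which were 18.0% of the 151264 nuclei kept. Nuclei here are barcodes that passed filters. They are more than the study used, and some may hold no nucleus.

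Each heartbeat starts with calcium that enters through the L-type channel and releases more calcium from the sarcoplasmic reticulum through the ryanodine receptor. The calcium is then pumped back by the calcium ATPase SERCA2a or leaves the cell through the sodium-calcium exchanger. The pump is held back by the small membrane proteins phospholamban and sarcolipin, and another micropeptide, DWORF (the product of Strit1), displaces phospholamban from it. Phospholamban is prominent in the ventricle and sarcolipin in the atrium.

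Nuclei came from the whole heart of male mice aged 9 weeks, 4 of them WT and 4 Taz-KO, and each mouse gave 1 library of nuclear RNA. Taz encodes tafazzin, the acyltransferase that remodels cardiolipin, and its loss in humans causes Barth syndrome. The labels give the genotypes only as WT and KO, and name neither the allele nor the strain. Since the hearts were whole, atrial and ventricular nuclei came in the same library. The libraries held between 20025456 and 348080773 UMIs (unique molecules counted), and any pair of libraries shared between 2 and 294 barcodes. Taz-KO replicates 1 and 4 stood apart, with 3492 and 5571 barcodes against 21190 or more in every other library. Replicates were numbered within each genotype and are given in the order 1 to 4 throughout. Levels are UMIs of a gene per 1000000 UMIs of the summed nuclei of a mouse (CPM), with mitochondrial genes left out.

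Cardiomyocyte nuclei formed 4 clusters that were named from a marker list, 3 ventricular-like and 1 atrial-like. The 6 cardiomyocyte markers, among them Ttn, Fhod3 and Ctnna3, summed to between 41666 and 58898 CPM in WT and between 31835 and 49379 CPM in Taz-KO. The sums rested on 3530, 4448, 3734 and 3606 nuclei in WT and on 183, 6311, 4328 and 1012 in Taz-KO, or 4019378 to 84489119 UMIs. Of 13 marker lists of other cell types, 11 overlapped between the genotypes in these sums. The 4 smooth muscle markers were higher in Taz-KO (54.5 to 235 CPM against 13.3 to 52.0) and the 4 B-lymphocyte markers lower (7.46 to 15.9 CPM against 20.9 to 27.9). Among the 54 markers of these lists, 2 were at 0 in at least 1 library. The part of these nuclei or of their RNA in the results was not tested.

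Taz itself was read at 53.4, 49.7, 54.4 and 48.8 CPM in WT cardiomyocytes and at 42.8, 38.3, 27.9 and 31.7 CPM in Taz-KO. Every Taz-KO mouse was below every WT mouse. The fall was 0.65 on the log2 scale (SE 0.18, edgeR adjusted p = 0.0287). Reads of the gene were thus still counted in the knockout libraries, and which part of the gene they came from was not analysed here. Without WT replicate 1 the adjusted p was 0.0626, without WT replicate 3 it was 0.0548 and without WT replicate 4 it was 0.0508.

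In the cardiomyocytes, only Strit1 of the 10 genes passed the test between the genotypes. Its mean level was 44.9-fold lower in Taz-KO. None of the other 9 passed the edgeR test, which called 15.7% of the 18318 genes tested, 8.91% higher and 6.82% lower (11.1% higher and 5.41% lower with library totals alone as the scale). An unadjusted p under 0.05 was reached by 3 of the 10, Strit1, Atp2a2 and Pln, and by 29.0% of all genes tested. The median log2 fold change of the 10 genes was -0.15, beside -0.01 for all genes tested. The 4 mice of each genotype did not overlap for 4 of the 10 genes, with Atp2a2, Pln and Strit1 lower and Trdn higher in Taz-KO. Among all genes tested, 22.5% did not overlap, 7.53% with Taz-KO lower and 15% with Taz-KO higher. In simulated cardiomyocyte data on 18318 genes, 100 genes were changed by a factor of 2 and 100 by a factor of 4. Of these 29% and 92% were called. Far fewer genes were changed there than the 2883 called here, which makes the adjusted threshold stricter. The shares cover genes of all levels and are not rates for the 10 genes.

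**Figure D1:**
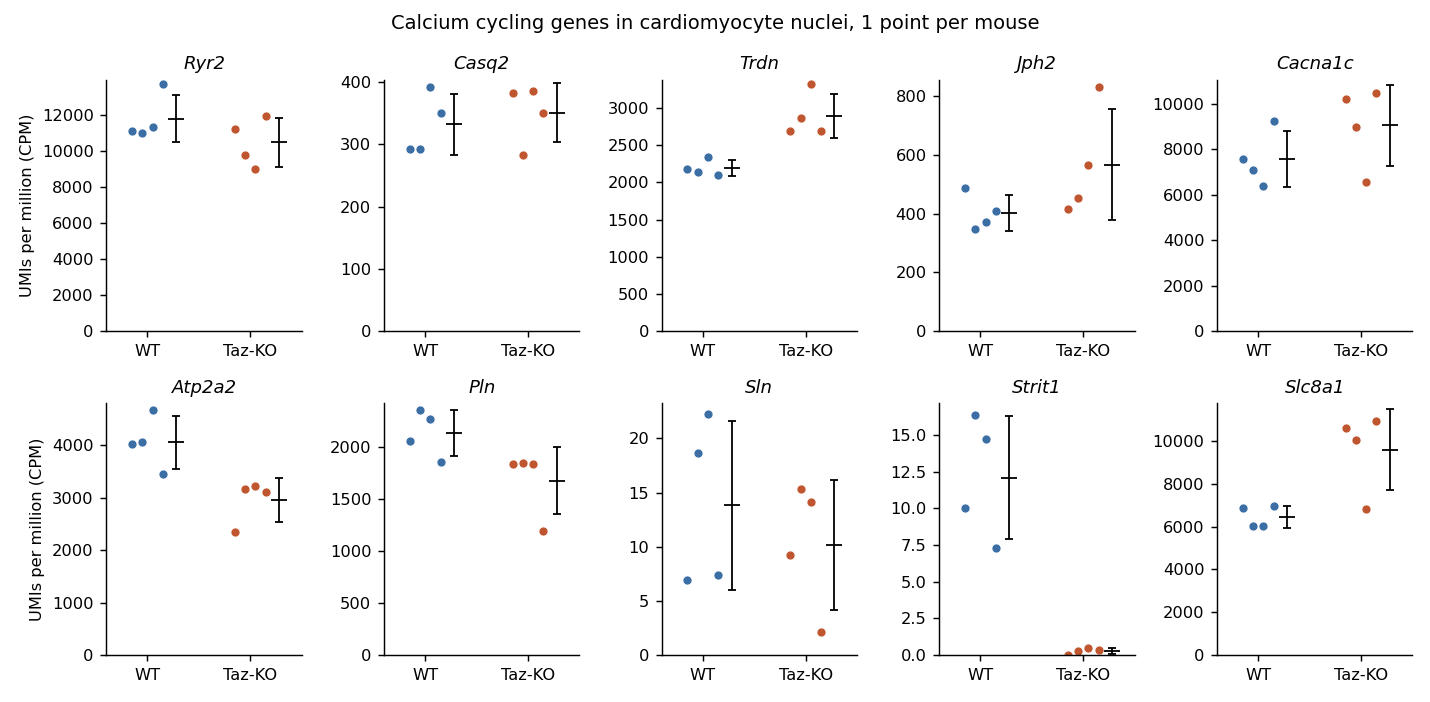
Levels of the 10 genes in the summed cardiomyocyte nuclei of each mouse (CPM, 1 point per mouse in the order of replicates 1 to 4), with the mean and SD of the 4 mice beside them. The Taz-KO mice lie near 0 for Strit1 (0 to 0.460 CPM), below all WT mice for Atp2a2 and Pln, and above all WT mice for Trdn.

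The release site was measured by 4 genes. Ryr2, the ryanodine receptor of the heart (chr13:11553102-12106945, minus strand, GRCm38), was at 11119, 10986, 11337 and 13737 CPM in WT and at 11246, 9768, 9010.5 and 11968 CPM in Taz-KO. The genotypes overlapped, and the highest WT mouse, replicate 4, stood well above the other WT mice. The log2 fold change was -0.27 (SE 0.25, edgeR adjusted p = 0.549). Casq2, which encodes calsequestrin, the calcium store of the reticulum lumen (chr3:102086415-102146514, plus strand), was at 292, 292, 392 and 351 CPM in WT and at 383, 283, 385 and 349.6 CPM in Taz-KO. Its values overlapped almost wholly, with a log2 fold change of -0.03 (SE 0.19), whose sign turned with the scaling (0.08 with library totals alone).

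Trdn, which encodes triadin, the anchor between calsequestrin and the receptor (chr10:33080554-33476709, plus strand), was at 2184, 2136, 2342 and 2098 CPM in WT and at 2686, 2859, 3318 and 2692 CPM in Taz-KO. All Taz-KO mice were above all WT mice. The means differed by 31.9%, and the log2 fold change of 0.29 (SE 0.18) had an edgeR adjusted p of 0.331. With library totals alone, a scale on which the median of all genes stood at 0.10, it was 0.40 with an adjusted p of 0.0432. Jph2, the junctophilin that holds the reticulum to the surface membrane (chr2:163336242-163397993, minus strand), was at 486, 347, 371 and 409 CPM in WT and at 416, 455, 567 and 831 CPM in Taz-KO. Taz-KO replicate 4 was the highest mouse. The log2 fold change was 0.41 (SE 0.28, edgeR adjusted p = 0.377), and without that mouse it was 0.07.

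Calcium entry and extrusion were measured by 2 genes. Cacna1c, the pore of the L-type channel (chr6:118587240-119196418, minus strand), was at 7543, 7076, 6395 and 9252 CPM in WT and at 10185, 8972, 6552 and 10455 CPM in Taz-KO. The genotypes overlapped, and the log2 fold change was 0.16 (SE 0.28, edgeR adjusted p = 0.766). It turned to -0.15 without the 2 Taz-KO libraries of fewest barcodes. Slc8a1, the sodium-calcium exchanger (chr17:81373105-81738377, minus strand), was at 6849, 6018, 6029.8 and 6948 CPM in WT. In Taz-KO it was at 10589.9, 10060.4, 6818 and 10918 CPM. Replicate 3 lay within the WT range, and the other 3 Taz-KO mice were above it. The log2 fold change was 0.48 (SE 0.27, edgeR adjusted p = 0.260), 0.67 without Taz-KO replicate 3 and 0.21 without the 2 Taz-KO libraries of fewest barcodes. With library totals alone it was 0.57 (adjusted p = 0.0439).

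The pump and its main inhibitor were both lower in every Taz-KO mouse than in any WT mouse, without passing the edgeR test. Atp2a2, which encodes SERCA2a (chr5:122453513-122502225, minus strand), was at 4018, 4069, 4683 and 3449.9 CPM in WT and at 2339, 3171, 3217 and 3117 CPM in Taz-KO. The lowest value was that of Taz-KO replicate 1. The log2 fold change was -0.54 (SE 0.21, edgeR adjusted p = 0.108), and in the atrial-like nuclei alone it was 0.01. In the barcodes with the fewest UMIs it was -0.82 (edgeR adjusted p = 0.657). The cardiomyocyte level of Atp2a2 was above theirs in only 2 of the 4 WT mice. Whether the Atp2a2 UMIs came from these nuclei or from RNA outside them can therefore not be told. Pln, which encodes phospholamban (chr10:53337667-53345987, plus strand), was at 2052, 2355, 2270.3 and 1858 CPM in WT and at 1832, 1842, 1839 and 1188 CPM in Taz-KO. Here the gap between the lowest WT and the highest Taz-KO mouse was small, and Taz-KO replicate 4 was far below the other 3. The log2 fold change was -0.46 (SE 0.19, edgeR adjusted p = 0.121). In the barcodes with the fewest UMIs it was -0.48 (edgeR adjusted p = 0.892), and the cardiomyocyte level of Pln was above theirs in all 4 WT mice. With DESeq2, which called 7.62% of genes lower, Atp2a2 (log2 fold change -0.58, adjusted p = 0.0261) and Pln (-0.50, adjusted p = 0.0193) were called along with Strit1. On the simulated data DESeq2 made 40 false calls and edgeR made 9, while DESeq2 called 44% of the genes changed by a factor of 2 and edgeR 29%. The spread of those data was taken from edgeR's own estimates, so they cannot rank DESeq2 against edgeR. Calls by DESeq2 alone are held as less certain here.

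The 3 micropeptide genes are short, and their reading frames are printed because the proteins that regulate the pump are no longer than these lines. The sequences are from GENCODE vM21 (GRCm38), 5′ to 3′, with the start and stop codons in capitals. Strit1 (34 codons before the stop) is read from the minus strand within chr3:63481290-63483827 and is split over 2 exons. Pln (52 codons) lies in 1 exon at chr10:53343864-53344022 and Sln (31 codons) in 1 exon at chr9:53853473-53853568, both on the plus strand.
Strit1: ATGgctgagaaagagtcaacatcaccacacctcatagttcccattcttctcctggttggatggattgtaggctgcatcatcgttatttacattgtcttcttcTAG
Pln: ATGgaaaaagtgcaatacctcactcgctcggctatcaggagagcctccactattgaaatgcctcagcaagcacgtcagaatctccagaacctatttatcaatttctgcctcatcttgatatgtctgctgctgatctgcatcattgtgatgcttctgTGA
Sln: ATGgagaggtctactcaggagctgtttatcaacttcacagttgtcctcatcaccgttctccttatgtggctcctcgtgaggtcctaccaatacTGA

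Strit1, the DWORF gene (chr3:63481112-63483879, minus strand, named Gm34302 in GENCODE vM21), was at 10.1, 16.3, 14.7 and 7.28 CPM in the WT cardiomyocytes, from 476, 954, 536 and 304 UMIs. In Taz-KO it was at 0, 0.284, 0.460 and 0.333 CPM, from 0, 24, 15 and 3 UMIs. The highest Taz-KO mouse was far below the lowest WT mouse. The 0 of Taz-KO replicate 1, among 4019378 UMIs, allows a level of up to 0.746 CPM by counting error. The fitted fall was 5.31 on the log2 scale (SE 0.38, edgeR adjusted p = 7.58e-06), or 39.6-fold, and the mean CPM differed 44.9-fold. It was called with each mouse left out in turn, without the 2 smallest Taz-KO libraries and under every other setting tried in cardiomyocytes, with log2 fold changes between -5.57 and -5.16.

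The Strit1 level of the cardiomyocyte nuclei was no higher than in the barcodes with the fewest UMIs. The lowest-UMI 10% of barcodes, used as a stand-in for RNA outside nuclei, held Strit1 at 19.7, 26.5, 24.7 and 8.67 CPM in WT and at 0, 1.05, 0.825 and 0 CPM in Taz-KO. In each WT mouse the cardiomyocyte level was 0.509 to 0.841 of it. Strit1 UMIs of nuclei and free RNA can therefore not be told apart here, and the difference between the genotypes stands in the library as a whole. It was called in the lowest-UMI 10% of barcodes too (log2 fold change -4.62, SE 0.52, edgeR adjusted p = 0.00215), where 0.251% of genes were called lower and no other of the 10 genes was called. In most libraries these barcodes also passed the filter for nuclei, and in Taz-KO replicate 4 none of the 557 did. The 0 values of Taz-KO replicates 1 and 4 allow up to 4.18 and 10.1 CPM by counting error.

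Sln, the sarcolipin gene (chr9:53850164-53854560, plus strand), was at 6.93, 18.7, 22.2 and 7.40 CPM in WT cardiomyocytes and at 9.21, 15.4, 14.1 and 2.11 CPM in Taz-KO. The spread within each genotype was wider than the difference between them, with a log2 fold change of -0.51 (SE 0.53, edgeR adjusted p = 0.594). The 7 atrial markers summed to 718 to 935 CPM in WT cardiomyocytes and to 187 to 563 CPM in Taz-KO, although 5 of the 7 had a higher mean in Taz-KO. Atrial-like nuclei made up 3.57% to 4.30% of the cardiomyocyte nuclei in WT and 3.77% to 6.62% in Taz-KO.

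The micropeptides were set against the pump and the release channel within each mouse, a comparison that does not depend on how libraries are scaled. Per 1000 UMIs of Atp2a2 there were 2.502, 4.02, 3.14 and 2.11 UMIs of Strit1 in WT and 0, 0.0896, 0.143 and 0.107 in Taz-KO. The mean log2 ratio (with 0.5 UMIs added) differed by -4.88 over Atp2a2 and by -5.16 over Ryr2. Neither overlapped between the genotypes, and the exact two-sided permutation test gave p = 0.0286 for both, the smallest that 4 mice against 4 allow. Adjusted over the 6 ratios, both stood at 0.0857 and so did not pass. At that smallest p they could not pass by themselves, whatever their size. Pln over Atp2a2 differed by 0.09 (exact permutation p = 0.657) and Pln over Ryr2 by -0.20 (p = 0.571), against SDs of the mice of 0.109 to 0.466. Sln over Atp2a2 differed by -0.11 (exact permutation p = 0.8) and Sln over Ryr2 by -0.40 (p = 0.714). The sign of these 4 differences turned when single mice were left out.

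In the ventricular-like nuclei, the levels and tests were close to those of all cardiomyocytes, since they made up most of them, and Strit1 was again the 1 gene called (log2 fold change -5.28, edgeR adjusted p = 6.41e-06, beside 7.04% of genes called lower). In the atrial-like nuclei, 4 WT mice were set against 3 Taz-KO mice, because Taz-KO replicate 1 gave 8 such nuclei. Strit1 was at 11.6, 12.9, 7.49 and 1.48 CPM in WT (49 UMIs in all) and at 0 in all 3 Taz-KO mice, where the 0 of replicate 4 allows up to 24.7 CPM. With the UMIs of each genotype pooled, it was at least 13.6-fold lower against 3 UMIs for Taz-KO. Replicate 2 gave 3798342 of the 4763785 pooled Taz-KO UMIs, so this bound is not one for each mouse. It was called with an edgeR adjusted p of 0.0405, beside 0.347% of genes called lower. With any 1 mouse left out it was not called, or was under the filter on low counts. None of the other 9 genes was called there.

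Sln was the 1 gene of the 10 that was higher in atrial-like than in ventricular-like nuclei of every mouse. It was at 106, 84.5, 129 and 101 CPM in the atrial-like nuclei of WT and at 125, 165 and 115 CPM in those of Taz-KO replicates 2 to 4. In ventricular-like nuclei it was at 4.71, 16.5, 17.7 and 4.26 CPM in WT and at 3.29, 10.2, 10.1 and 0.563 CPM in Taz-KO, below the lowest-UMI 10% of barcodes of the same libraries (27.1, 48.1, 70.4 and 27.6 CPM in WT). On the log2 scale the atrial-like level was higher by 3.57 ± 1.13 in WT (SD, n = 4) and by 5.08 ± 2.18 in Taz-KO (SD, n = 3). The Taz-KO mean was raised by replicate 4, at 7.59, which rests on 14 UMIs in 39 atrial-like nuclei and 5 UMIs in the ventricular-like ones. Pln, Slc8a1, Casq2, Trdn, Cacna1c and Jph2 were lower in the atrial-like nuclei of all 7 mice, by 0.94 ± 0.24 for Pln and by 1.05 ± 0.03 for Cacna1c in WT (SD, n = 4). The chamber difference was compared between genotypes for each gene. Ryr2 and Atp2a2 lay lower in atrial-like than in ventricular-like nuclei of WT (-0.31 ± 0.17 and -0.20 ± 0.03) and slightly higher in Taz-KO (0.07 ± 0.15 and 0.18 ± 0.09). Casq2 and Cacna1c also did not overlap between genotypes in this difference, nor did 14.2% of the 11247 genes tested in atrial-like nuclei. For these 4 genes the exact two-sided permutation p was 0.0571, the smallest that 4 against 3 allow, so none could pass.

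Of the 3 ventricular-like clusters the smallest, of 3910 nuclei, had a median of 16.7% mitochondrial UMIs against 8.34% and 9.68% in the other 2. There Ryr2 was at 8943 ± 1545 CPM in WT and Cacna1c at 5861 ± 1671, against 11299 ± 1308 and 7603 ± 1389 in the largest cluster (SD, n = 4). These differences between clusters were not tested. Strit1 was low in Taz-KO in all 3, with 11, 30 and 1 UMIs in the largest, the middle and the smallest cluster, against 940, 1086 and 195 in WT.

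**Figure D2:**
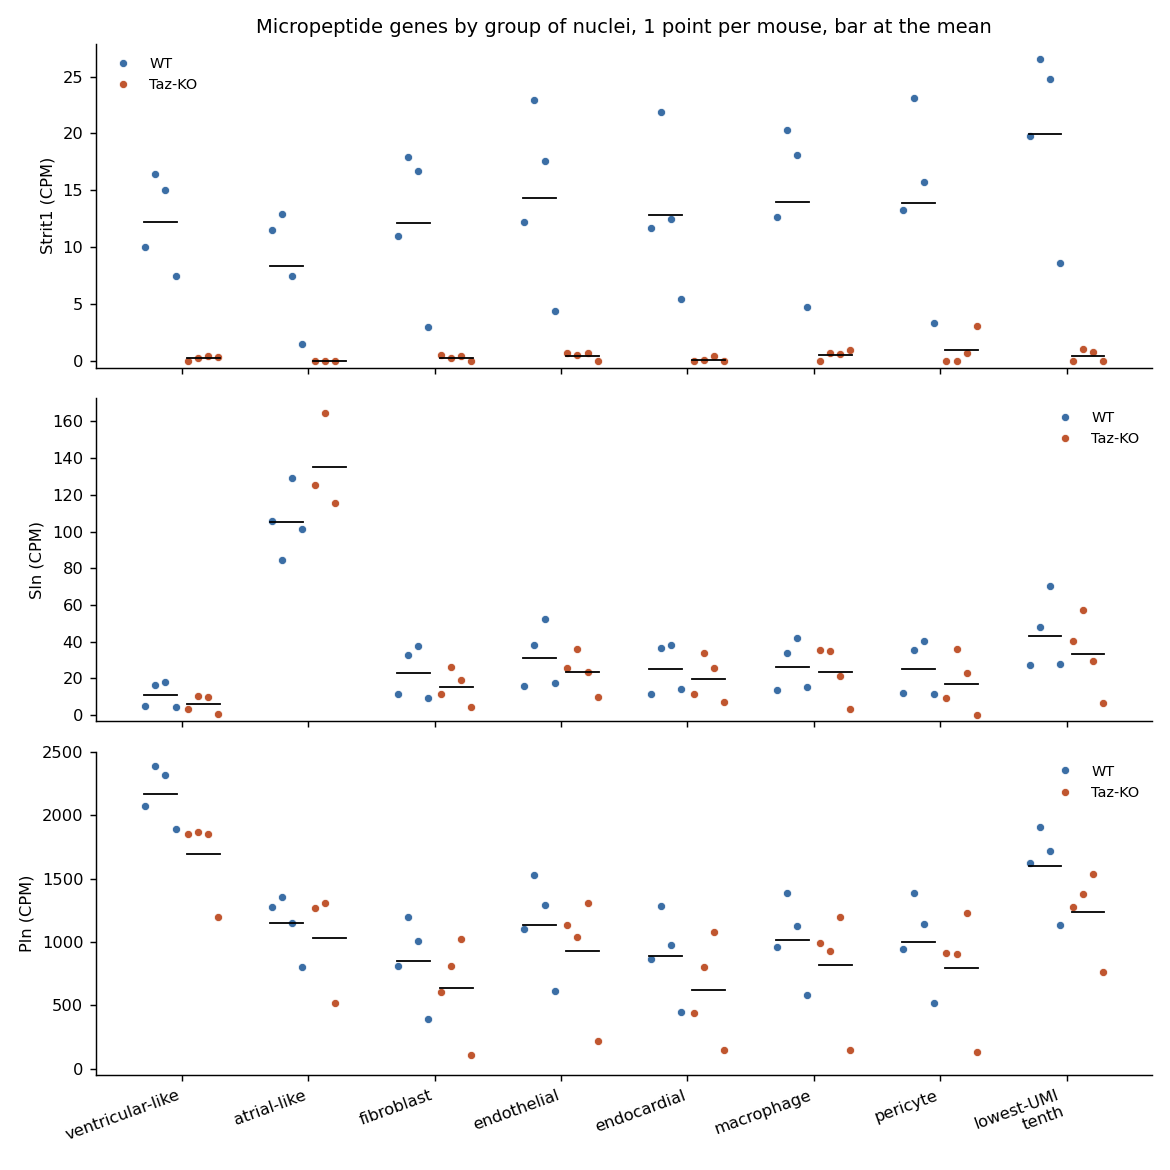
Strit1, Sln and Pln in groups of nuclei and in the lowest-UMI 10% of barcodes (CPM, 1 point per mouse, bar at the mean of the genotype). Strit1 of WT has means of 8.36 CPM in atrial-like nuclei to 19.9 CPM in the lowest-UMI 10% of barcodes and lies near 0 in Taz-KO, Sln is highest in atrial-like nuclei (84.5 to 165 CPM), and Pln has its highest means in ventricular-like nuclei.

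Outside cardiomyocytes, 9 named cell types were tested, and UMIs of the calcium cycling genes were found in all of them. The WT mean of Sln was above that of cardiomyocytes (13.8 CPM) in 8 of the 9 (32.0 CPM in smooth muscle cells), and that of Strit1 (12.1 CPM) in 7. Atp2a2 was at 2700 CPM in WT endothelial cells and at 4055 CPM in cardiomyocytes. In WT, the level of Ryr2 in the other cell types was 0.420 to 0.723 of that in the lowest-UMI 10% of barcodes of the same library (medians of 4 mice, lowest and highest cell type), and in cardiomyocytes it was 4.40 times it. Atp2a2, Pln, Sln, Strit1 and Trdn were likewise below the lowest-UMI level in all 9 cell types. Jph2 reached 1.83 times that level in smooth muscle cells, Cacna1c 1.37 times in pericytes, Slc8a1 1.33 times in smooth muscle cells and Casq2 1.07 times in pericytes.

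Strit1 was the 1 gene of the 10 called between the genotypes in another cell type. In fibroblasts it was at 11.03, 17.9, 16.7 and 2.97 CPM in WT and at 0.582, 0.288, 0.429 and 0 CPM in Taz-KO. The log2 fold changes were -5.21 in fibroblasts, -4.65 in endothelial cells, -5.58 in endocardial cells and -4.40 in macrophages (edgeR adjusted p = 0.0178, 0.0226, 0.00531 and 0.0207). These cell types called 0.0872%, 0.0863%, 0.0364% and 0.0777% of genes lower. The calls depended on single mice: without some of them none of these calls held. With DESeq2 more cell types called Strit1. In the other 5, Strit1 was under the filter on low counts, and several of its 0 values in Taz-KO allow levels as high as those of WT (up to 51.4 CPM for replicate 4 in smooth muscle cells). In lymphatic endothelial cells, for one, 111 UMIs were counted in WT and 0 in Taz-KO. For the pooled UMIs of each genotype that was at least 15.4-fold lower, against 3 UMIs for Taz-KO. None of the other 9 genes was called in these 5, which called 0% (adipocytes), 0.0813% (lymphatic endothelial cells), 0.0661% (mesothelial cells), 0.101% (pericytes) and 0.0916% (smooth muscle cells) of genes in either direction. With a share of 0.2 of the lowest-UMI profile subtracted, Strit1 stood between -6.29 and -4.27 in these 4 cell types and was called in none. By edgeR, endocardial cells, fibroblasts and macrophages then called 0 genes of any kind (728, 1170 and 487 had an unadjusted p under 0.05), and endothelial cells called 6 higher and 3 lower.

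How far a gene stood above the lowest-UMI barcodes went with the length of the gene. In WT cardiomyocytes the ratio of the 2 levels was 0.292 for Sln (4.40 kb from start to end), 0.605 for Strit1 (2.77 kb), 1.29 for Pln (8.32 kb), 1.03 for Atp2a2 (48.7 kb) and 1.31 for Casq2 (60.1 kb). It was 3.15 for Jph2 (61.8 kb), 4.01 for Slc8a1 (365 kb), 3.43 for Trdn (396 kb), 4.40 for Ryr2 (554 kb) and 5.39 for Cacna1c (609 kb). Spearman's rho over the 10 genes was 0.96, as a description of genes that share the same libraries. Reads in introns were counted in these files, and their part in this relation was not tested.

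**Figure D3:**
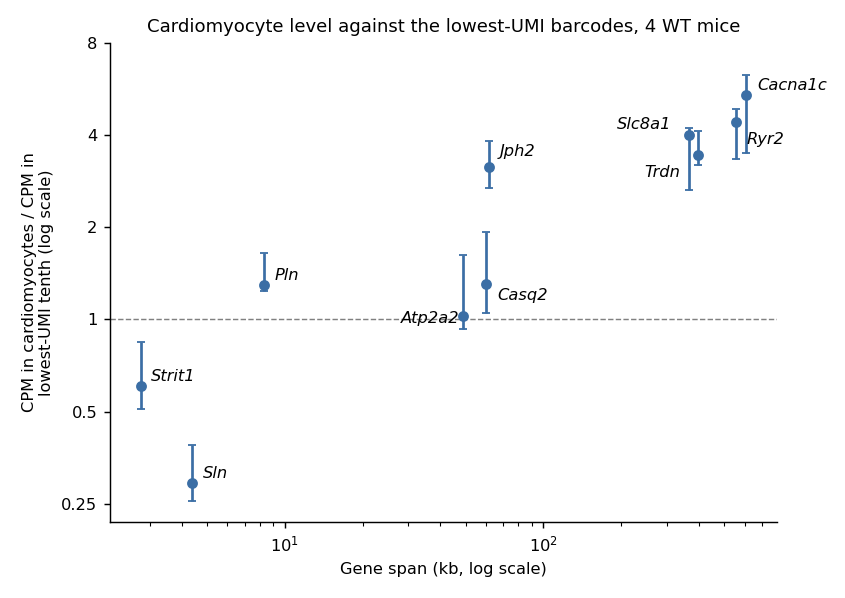
Gene span (kb, log scale) against the level in WT cardiomyocytes divided by the level in the lowest-UMI 10% of barcodes of the same library (log scale); points are medians and bars the range of the 4 WT mice. Sln and Strit1 lie below the dashed line of equal levels, and Cacna1c is highest at 5.39.

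The genes around Strit1 were then examined on chromosome 3, a choice made after their values were seen. Of the 10 other genes tested within 1 Mb on either side, 4 were called in cardiomyocytes, 2 lower and 2 higher, or 40%, beside 15.7% of all genes. The nearest tested gene, the non-coding Gm34240 (chr3:63439251-63457897, 23.2 kb away), was at 9.06, 8.77, 14.6 and 7.95 CPM in WT and at 0, 0.296, 1.14 and 0.667 CPM in Taz-KO. Mme, which encodes the peptidase neprilysin (95.1 kb away on the same side), was at 21.9, 26.1, 22.1 and 16.03 CPM in WT and at 7.71, 6.30, 6.44 and 3.78 CPM in Taz-KO. Neither overlapped between genotypes, with log2 fold changes of -4.21 (edgeR adjusted p = 0.000182) for Gm34240 and of -1.95 (adjusted p = 8.5e-05) for Mme.

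On the other side, Plch1, a phospholipase C (212 kb away), rose from 0.739, 0.240, 0.247 and 0.288 CPM in WT to 4.73, 3.55, 4.17 and 2.67 CPM in Taz-KO (log2 fold change 3.16, edgeR adjusted p = 0.000380). Vmn2r3, a vomeronasal receptor gene (chr3:64257215-64289709, 773 kb away), was at 0.106, 0.188, 0.576 and 0.120 CPM in WT, from 42 UMIs in all, and at 362, 188, 187 and 268 CPM in Taz-KO, from 25875 UMIs. Its log2 fold change was 9.97 (SE 0.56, edgeR adjusted p = 3.87e-06). The gene belongs to a family of near copies, so reads could be split among them. Vmn2r1, its neighbour in the family, was at 0.455 to 0.788 CPM in WT and at 0.667 to 1.49 CPM in Taz-KO and was not called. Between Plch1 and Vmn2r1, E130311K13Rik, Slc33a1, Gm26850 and Gmps were not called, with log2 fold changes from -0.23 to 0.76, nor was Dhx36 on the far side of Mme (0.17).

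Vmn2r3 was called higher in 8 of the 8 other cell types that tested it (log2 fold changes from 6.38 to 8.64) and in the lowest-UMI 10% of barcodes (9.64). Mme was tested in all 9 and called in 0 of them by edgeR, with log2 fold changes from -1.22 to 0.08 that were below 0 in 8, and it was not called in the lowest-UMI 10% of barcodes (log2 fold change -1.10, adjusted p = 0.0960). Around the other 9 calcium cycling genes, between 8.33% and 28.6% of the genes tested within 1 Mb were called. The largest absolute log2 fold change near any of them was 5.86 (near Jph2), against 9.97 near Strit1. The sources used here do not give the strain or breeding of the mice, and the loss of Taz and a difference between the mice in this region of chromosome 3 cannot be told apart.

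**Figure D4:**
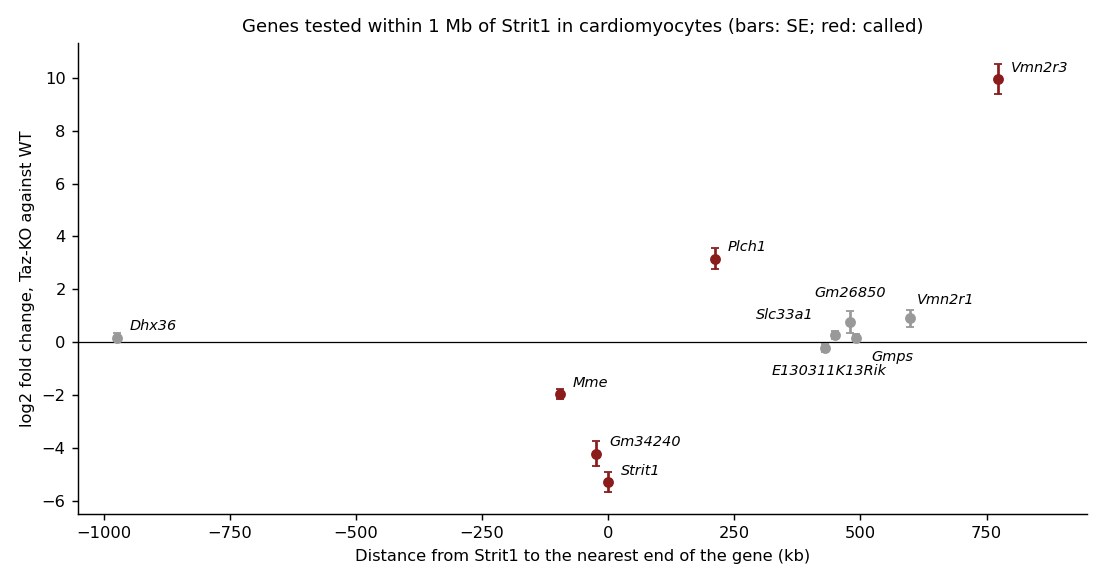
Log2 fold change between Taz-KO and WT in cardiomyocytes of Strit1 and the 10 other genes tested within 1 Mb of it, by the distance to the nearest end of the gene (kb); bars are SE and red points passed an adjusted p of 0.05. Gm34240 and Mme on one side are lower with Strit1, Plch1 and Vmn2r3 on the other are higher, and the 6 grey points lie between -0.23 and 0.90.

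The 250 bases before the Strit1 start are printed as the reference sequence next to the start of the gene that changed most among the 10. It was not read from these mice. It is chr3:63483907-63484156 on the minus strand (RefSeq, GRCm38.p6), 5′ to 3′, with matches to CANNTG, the letters of an E-box, in capitals. Motifs were searched on both strands, and each CAGCTG is also a CANNTG.
Strit1 promoter: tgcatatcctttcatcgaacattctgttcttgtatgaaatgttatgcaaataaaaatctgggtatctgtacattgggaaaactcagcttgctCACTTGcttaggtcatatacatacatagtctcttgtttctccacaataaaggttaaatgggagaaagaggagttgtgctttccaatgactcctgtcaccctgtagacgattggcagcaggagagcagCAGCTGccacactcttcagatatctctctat
Its 2 matches are of a kind that 66.2% of all 32851 promoter windows of this length hold at least once. The second is CAGCTG, which 4271 of the windows hold. No match was found for AGATAA (in 9.99% of windows) or for TATAAA (in 12.4%).

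Other genes of calcium handling were read from a list of 70 genes in 7 roles, of which 68 were in the table and were tested. In cardiomyocytes 10 were lower and 2 higher in Taz-KO, beside 6.82% and 8.91% of all genes, and the median log2 fold change was -0.27. Of the 11 genes around the release channel, Hrc, a calcium-binding protein of the reticulum lumen, was lower, and Ryr3, another ryanodine receptor, was higher. Hrc was at 165, 243, 243 and 76.6 CPM in WT and at 29.6, 51.8, 59.9 and 19.2 CPM in Taz-KO (log2 fold change -2.27, SE 0.38, edgeR adjusted p = 0.00304). In the lowest-UMI 10% of barcodes Hrc was higher than in cardiomyocytes (means of 538 and 182 CPM in WT), with a log2 fold change of -2.13 that did not pass (adjusted p = 0.182), so its UMIs in nuclei and in free RNA cannot be told apart either. With the subtraction of 0.2 of that profile, Hrc was not called in cardiomyocytes (log2 fold change -2.37, SE 0.90, edgeR adjusted p = 0.135), and 1079 genes were called higher and 946 lower of the 16192 then tested. Ryr3 was at 6.10 to 14.5 CPM in WT and at 26.5 to 41.5 CPM in Taz-KO (log2 fold change 1.42). It was a leading gene of the atrial-like cluster, and in ventricular-like nuclei alone it was at 2.16 to 3.96 CPM in WT and 10.3 to 16.7 CPM in Taz-KO.

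Among the 8 tested genes of other reticulum pumps and pump regulators, Hax1, which encodes a partner of phospholamban, was higher (8.13 ± 1.28 CPM in WT and 18.5 ± 6.16 in Taz-KO, SD, n = 4 each) and none was lower. Of the 13 surface channel genes, the T-type channel gene Cacna1g (log2 fold change -1.65) and Rrad, a small GTPase that holds back the L-type channel (-1.22), were lower. Of 9 exchangers and pumps, 2 were lower, among them Atp2b2, a calcium pump of the surface membrane (-1.60). Atp2b2 was low in both genotypes, at 1.63 to 2.76 CPM in WT and 0.222 to 1.07 CPM in Taz-KO. Taz-KO replicates 1 and 4 gave 2 UMIs of it each. The 7 not called include the pump genes Atp2b1 (-0.18) and Atp2b4 (-0.27).

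Of 8 genes of inositol trisphosphate receptors and store-operated entry, the receptor gene Itpr1 (-0.99), the store sensor Stim1 (-0.70) and its channel Orai1 (-0.63) were lower. Of 9 kinase and phosphatase genes, Camk2a (-1.25) and Camk2b (-1.79) were lower. The other 7 were not called, among them the kinase gene Camk2d (0.10, edgeR adjusted p = 0.845). None of the 10 genes of dyad and reticulum structure was called. Without the 2 Taz-KO libraries of fewest barcodes, 6 of the list were lower and 1 higher, beside 3.76% and 6.32% of all genes. Of the 12 genes of the list called in cardiomyocytes, 6 had a higher WT mean in the lowest-UMI 10% of barcodes, among them Stim1 (99.8 against 34.1 CPM), Orai1 (36.4 against 22.5 CPM) and Hax1 (14.7 against 8.13 CPM). By edgeR 0 of the 12 were called in those barcodes, where 0.894% of all genes were, and 4 had an unadjusted p under 0.05, beside 9.15% of all genes. For these 6, UMIs of nuclei and of free RNA cannot be told apart.

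**Figure D5:**
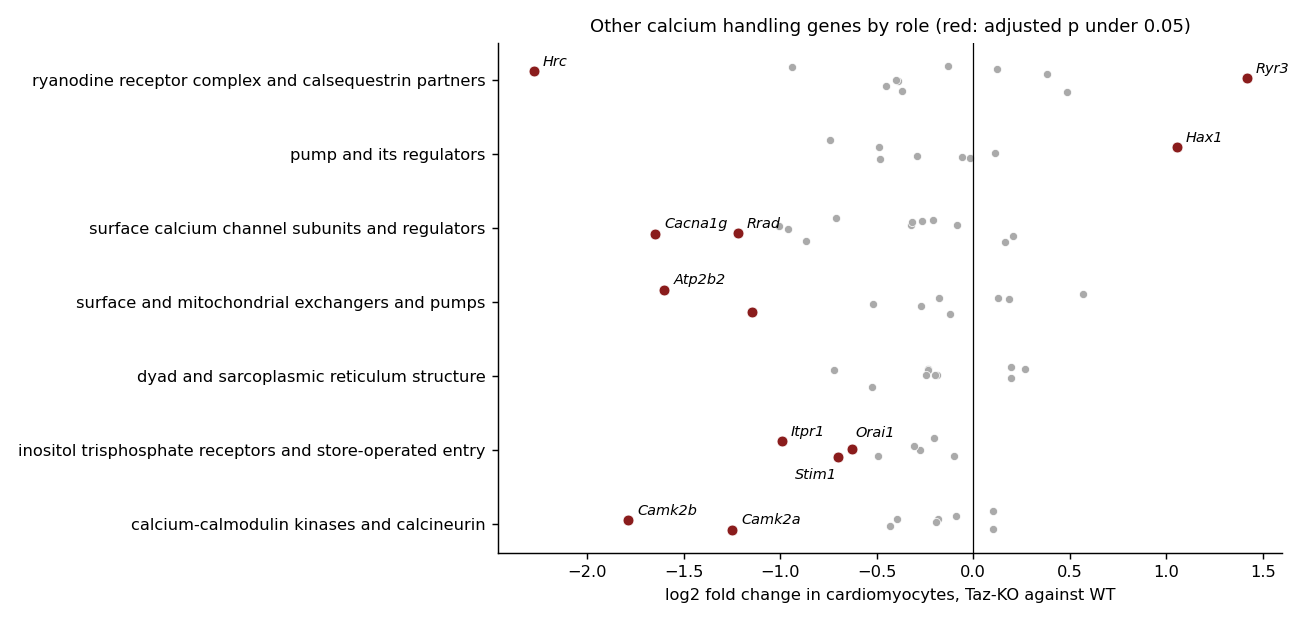
Log2 fold change between Taz-KO and WT in cardiomyocytes of the 68 tested genes of the calcium handling list by role (1 point per gene, spread vertically for legibility); red points passed an adjusted p of 0.05. Hrc (-2.27) and Ryr3 (1.42) mark the ends of the range.

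The genes whose level followed the micropeptides most closely over the 8 cardiomyocyte libraries were sought among 9065 genes with a mean of at least 10 CPM, by Pearson's r of log2(CPM + 1). They are a description of libraries that differ in genotype and depth. Strit1 and Pln were lower in every Taz-KO mouse, so genes picked for following them tend to be lower by that choice. For Strit1, Ctla4 (r = 0.99) and the non-coding Rmst (0.98) came first, and both were lower in Taz-KO. Rmst was at 38.4 to 46.7 CPM in WT and at 0.995 to 3.87 CPM in Taz-KO (log2 fold change -4.01). For Pln they were Btbd2, Pcolce2 and P3h4 (all 0.98), which were lower in Taz-KO with log2 fold changes of -0.61, -0.82 and -1.06. For Sln they were Serpinb6a (0.96), Fabp3, a fatty acid carrier of muscle (0.96), and Cul4b (0.95), none of which was called.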

How the data were processed

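For each of the 8 libraries the authors deposited a matrix of UMI counts, not normalized, made with Cell Ranger 6.0.1 on mm10 with introns counted, before their removal of ambient RNA and doublets. A barcode needed 800 or more UMIs and 250 or more genes, which 167495 of 169193 had, more than the study used. In most libraries the barcodes outnumbered the nuclei that, by the paper's account, went into a library. From these, 16231 doublets by a score were removed (2.79% to 10.0% of a library). Nuclei were clustered on 15 components corrected by mouse, without the calcium genes among the variable genes, into 37 clusters. Clusters were named from marker lists by a rule set after the marker scores were seen, and cardiomyocyte clusters with markers of another type were left out. The lowest-UMI 10% is taken of the deposited barcodes of each library.

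For each cell type the counts of a mouse's nuclei (10 or more) were added up. The test was edgeR's (version 4.0.16, R 4.3.3, with TMM scaling, filter on low counts, quasi-likelihood F test, Benjamini-Hochberg adjustment over all genes, threshold 0.05), where the study tested nuclei with MAST. It was tested on simulated data. DESeq2 1.42.0 and further settings were alternatives. Ratios and chamber differences were compared by exact permutation. All 10 genes are named throughout, as are Taz, the listed calcium genes that were called and the 3 genes most like each micropeptide, except 1 gene that is not reported here. The genes and lists were chosen with earlier results of these data known. Positions are GENCODE vM21 (GRCm38, the same build as mm10). Erln and Arln were not matched. P-values are for the difference between the genotypes, with these mice as the replicates. Intervals and floors cover counting error only.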

Additional observations from a re-analysis of the deposited data

Results flagged for a closer look

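In 84 groups of 4 mice checked for a mouse that stood far from the others, 12 did so, where chance gives about 1 in 20. The groups are not independent, since ventricular-like nuclei are most of the cardiomyocyte nuclei, so the 12 cannot be set directly against that share. In cardiomyocytes, WT replicate 4 was high for Ryr2 (13737 CPM, the other 3 between 10986 and 11337), Taz-KO replicate 1 was low for Atp2a2 (2339 CPM, others between 3117 and 3217) and Taz-KO replicate 4 was low for Pln (1188 CPM, others between 1832 and 1842). The same mice stood apart in the ventricular-like nuclei, at 13766 CPM for Ryr2, 2321 CPM for Atp2a2 and 1198 CPM for Pln. The log2 ratio of Sln to Atp2a2 was -10.49 in Taz-KO replicate 4 and between -7.97 and -7.69 in the other Taz-KO mice.

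In the lowest-UMI 10% of barcodes, WT replicate 4 was high for Ryr2 (4111 CPM, others between 2341 and 2596). Taz-KO replicate 4, whose lowest-UMI barcodes hold at most 616 UMIs, was high for Ryr2 (5566 CPM), Cacna1c (4041 CPM) and Jph2 (419.9 CPM) and low for Casq2 (191 CPM), against highest values of 2169.7, 1435 and 132 CPM and a lowest of 209 CPM in the other Taz-KO mice.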

How the results depend on the processing

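Strit1 was called lower in cardiomyocytes in every setting tried there. The number of the 10 genes called lower rose from 1 to 3 with DESeq2, in all cardiomyocytes and in ventricular-like nuclei, and the number called higher rose from 0 to 2 (Trdn and Slc8a1) with library totals alone, in both. Over all genes, the lower calls went from 1250 of 18318 to 1645 of 21577 with DESeq2 in all cardiomyocytes and from 1278 of 18144 to 1701 of 21041 in ventricular-like nuclei, and the higher calls from 1633 to 2036 and from 1679 to 2095 with library totals alone. Of the calcium handling list, 6 were lower and 1 higher without the 2 Taz-KO libraries of fewest barcodes, where 729 and 1226 of all 19388 genes were. Taz lay between -0.72 and -0.50 with single mice left out and at -0.59 (adjusted p = 0.0783) with a share of 0.2 of the lowest-UMI profile subtracted. In atrial-like nuclei none of the 10 genes was called with library totals alone, nor with any 1 mouse left out (0 in each case). Few genes were called there at all, 91 higher and 32 lower of 11247 with library totals alone and 27 to 127 higher and 4 to 51 lower with 1 mouse left out. Over the other cell types the 4 calls of Strit1 became 7 with DESeq2, 8 without a filter on low counts, 0 with the subtraction and 0 to 7 with single mice left out. The calls over all genes moved with them, in endothelial cells from 37 higher and 13 lower to 169 and 70 with DESeq2, to 70 and 29 without the filter and to 6 and 3 with the subtraction. With single mice left out they were 7 to 129 higher and 2 to 25 lower in endothelial cells. In fibroblasts they were then 6 to 140 higher and 1 to 30 lower.

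For the ratios, the range with single mice left out was -0.070 to 0.28 for Pln over Atp2a2, -0.34 to 0.027 for Pln over Ryr2, -0.38 to 0.55 for Sln over Atp2a2 and -0.74 to 0.30 for Sln over Ryr2. Without the 2 smallest Taz-KO libraries the last 3 stood at 0.12, 0.62 and 0.61. With 1 mouse left out no ratio can pass, since the smallest p is then 0.0571 before adjustment. Signs also turned for values that were not called. Casq2 was at 0.078 in all cardiomyocytes and 0.081 in ventricular-like nuclei with library totals alone, and ranged from -0.12 to 0.052 and from -0.13 to 0.042 with single mice left out. Cacna1c in cardiomyocytes was at -0.15 without the 2 smallest Taz-KO libraries. In atrial-like nuclei, Atp2a2 was at -0.010 with DESeq2 and ranged from -0.058 to 0.094 with single mice left out, Pln from -0.33 to 0.14 and Ryr2 from -0.12 to 0.37. In the lowest-UMI 10% of barcodes, Trdn was at 0.024 with library totals alone and ranged from -0.29 to 0.048, Cacna1c from -0.46 to 0.46, Jph2 from -0.23 to 0.61 and Ryr2 from -0.69 to 0.025. The genotype difference in the chamber contrast of Jph2 ranged from -0.10 to 0.15. The cause of these shifts was not tested.

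Keeping the cardiomyocyte clusters with markers of another type, a choice made after seeing the data, left the counts of the 10 genes as they were. No paired analysis was run: the replicate numbers were given in the order of the samples and pair no mice, and the sources used here tie the mouse numbers of the labels to no litter or day. The 183 and 1012 cardiomyocyte nuclei of Taz-KO replicates 1 and 4 limit what low genes can show there.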
